A study of Mus musculus with 12 samples.

Results

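Pyruvate is oxidised, carboxylated or reduced in the liver, and 10 genes that set its fate were read in livers of suckling mouse pups that lack the nuclear receptor PPARα (Ppara-/-) and of their wild-type counterparts (Ppara+/+). The genes were chosen by their role, with earlier results of these data known. The list holds the pyruvate dehydrogenase kinases Pdk1, Pdk2, Pdk3 and Pdk4, the phosphatase Pdp2, the pyruvate dehydrogenase subunits Pdha1, Pdhb and Dlat, the carboxylase Pcx and the lactate dehydrogenase Ldha. They are 10 of 19938 genes read on the arrays, and each was measured by 1 probe set that names it alone. Liver RNA of 12 pups was hybridised to Affymetrix MoGene arrays, 1 array per pup, with 6 Ppara-/- and 6 Ppara+/+ livers and 3 males and 3 females of each genotype. All pups were at postnatal day 2 (P2), were fed by heterozygous dams and came from crosses of Ppara+/- parents, so that both genotypes occurred in the same litters. The Ppara-/- pups carry the null allele in every tissue, and the design has no liver-restricted knockout. The labels give the strain of every pup as SV129, while the methods of the study give a C57BL/6 background. The methods describe RNA from 3 litters per genotype, but no label ties a pup to its litter, so the p-values measure the spread between pups and litter could not be modelled. The question asked here is which of the genes that route pyruvate differ in signal when PPARα is missing during suckling.

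The pyruvate dehydrogenase complex turns pyruvate into acetyl-CoA inside the mitochondrion and so commits carbohydrate carbon to oxidation or fat synthesis. Pyruvate dehydrogenase kinases switch the complex off by phosphorylating its E1α subunit, and the phosphatases switch it on again. In fasting or on a diet rich in fat, the liver raises Pdk4, an established target of PPARα, which spares pyruvate for carboxylation to oxaloacetate and for glucose synthesis.

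Pdk4 and Pdp2 fell and Pdk2 and Pcx rose in the Ppara-/- livers, while the other 6 genes did not pass the test. The kinase Pdk4 was 2.16-fold lower and the phosphatase Pdp2 was 1.37-fold lower, so an enzyme of each opposing arm of the switch had less signal. The kinase Pdk2 was 1.18-fold higher and the carboxylase Pcx 1.14-fold higher. A gene was called at an adjusted p under 0.05 from limma, in a model of genotype and sex, where the Benjamini-Hochberg adjustment covered every probe set on the array. The 2 genes called lower stand beside 1.12% of all genes called lower, and the 2 called higher beside 1.99% of all genes called higher. The median log2 change of the 10 genes was 0.00, and that of all genes was -0.01. In 4 of the 10 genes the 6 Ppara-/- and 6 Ppara+/+ arrays did not overlap, with 2 genes lower and 2 higher, beside 1.43% of all genes wholly lower and 2.88% wholly higher. Because the genes were chosen with earlier results of these data known, these shares are a description and not a test. Signals are on the log2 scale of the deposited values, a log2 change is always Ppara-/- minus Ppara+/+, and means carry the SD over 6 arrays.

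**Figure D1:**
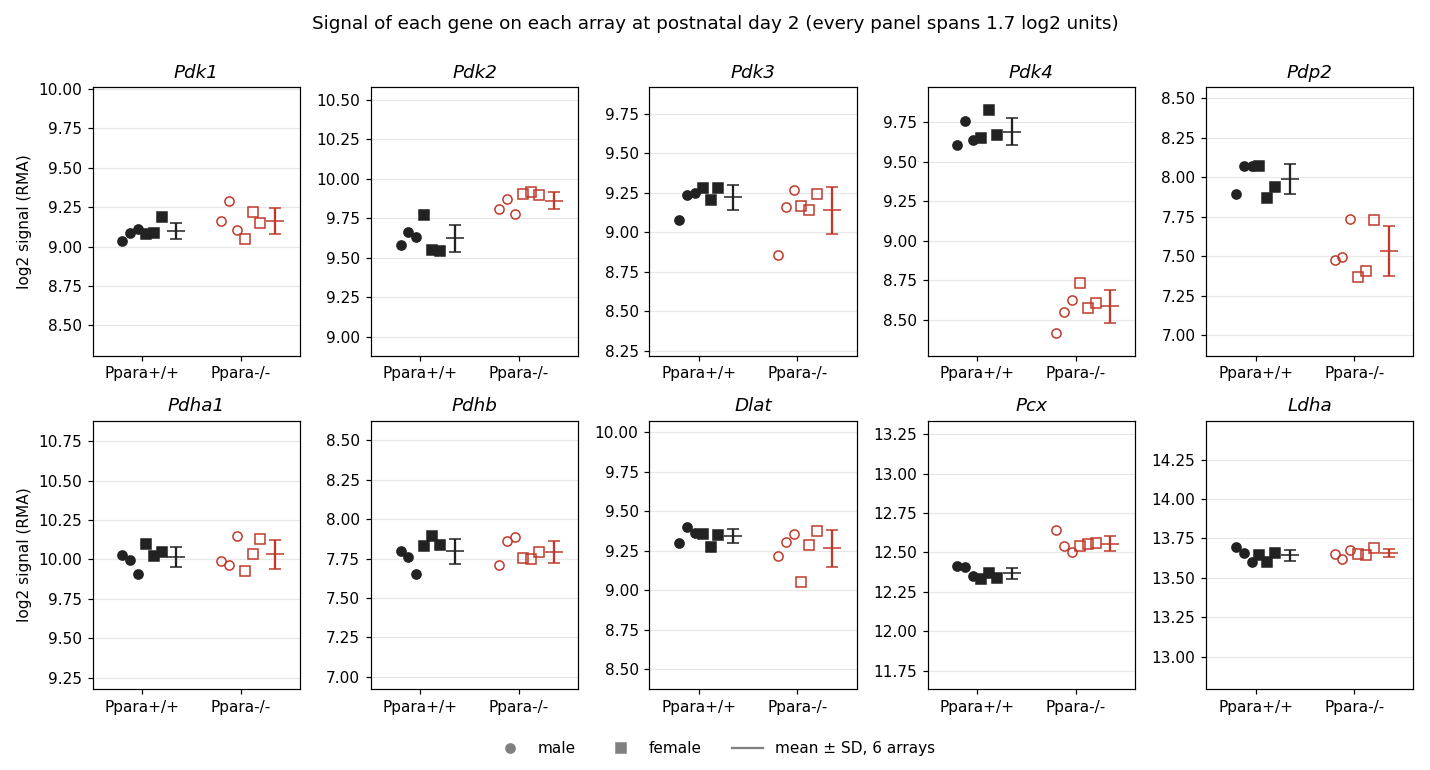
Log2 signal of the 10 genes on each array (vertical axis; horizontal axis, genotype). Ppara+/+ livers are filled in black and Ppara-/- livers open in red, with circles for males and squares for females; the bar gives mean ± SD of 6 arrays, and every panel spans the same log2 range; the genotypes separate for Pdk4, Pdp2, Pdk2 and Pcx and overlap in the other panels.

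The sequences upstream of the genes called lower and higher are shown because the direction of change differed among genes that set the fate of pyruvate. They are the 250 bases before the annotated start of Pdk4 (chr6:5496279-5496528, minus strand), Pdp2 (chr8:104591222-104591471, plus strand), Pdk2 (chr11:95041372-95041621, minus strand) and Pcx (chr19:4510222-4510471, plus strand), from RefSeq on GRCm38.p6, written 5′ to 3′ along the gene. Capitals mark CCAAT in either orientation and the palindrome CACGTG.
Pdk4: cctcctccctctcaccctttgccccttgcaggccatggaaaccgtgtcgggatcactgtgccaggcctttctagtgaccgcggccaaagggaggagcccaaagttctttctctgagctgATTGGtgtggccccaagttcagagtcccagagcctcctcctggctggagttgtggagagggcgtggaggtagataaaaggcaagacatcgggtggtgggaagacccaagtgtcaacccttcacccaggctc
Pdp2: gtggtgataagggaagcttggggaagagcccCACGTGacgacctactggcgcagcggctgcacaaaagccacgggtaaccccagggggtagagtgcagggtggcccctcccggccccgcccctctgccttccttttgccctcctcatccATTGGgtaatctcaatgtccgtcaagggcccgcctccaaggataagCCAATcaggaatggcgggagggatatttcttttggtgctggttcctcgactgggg
Pdk2: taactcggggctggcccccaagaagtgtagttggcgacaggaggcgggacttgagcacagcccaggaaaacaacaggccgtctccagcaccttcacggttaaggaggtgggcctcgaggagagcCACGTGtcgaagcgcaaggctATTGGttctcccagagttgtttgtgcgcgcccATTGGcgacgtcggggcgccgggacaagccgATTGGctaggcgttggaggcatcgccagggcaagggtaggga
Pcx: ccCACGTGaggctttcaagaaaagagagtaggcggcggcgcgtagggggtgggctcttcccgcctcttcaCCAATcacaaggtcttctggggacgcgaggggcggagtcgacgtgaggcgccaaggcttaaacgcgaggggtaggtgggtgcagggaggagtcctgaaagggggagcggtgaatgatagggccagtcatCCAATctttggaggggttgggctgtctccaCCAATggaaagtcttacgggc
For Pdk2 and Pcx the table holds 2 starts each, and the first listed is shown.

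All 10 genes were found in the promoter table, with 14 windows in all. The Pdk4 window held 1 CCAAT, starting 131 bases before the start of the gene, and no CACGTG. The Pdp2 window held 2 CCAAT, at 101 and 55 bases before the start, and 1 CACGTG. The Pdk2 window held 3 CCAAT, at 105, 73 and 42 bases before the start, and 1 CACGTG. The Pcx window also held 3 CCAAT, at 180, 51 and 21 bases, and 1 CACGTG. On either strand CCAAT was present in 6 of the 14 windows, those of 6 genes, and in 33.8% of 32851 promoter windows of the same length. CACGTG was present in 4 of the 14 windows, those of Ldha, Pcx, Pdk2 and Pdp2, and in 6.02% of all windows. The hexamer AGGTCA, a single binding site of many nuclear receptors, was in none of the 14 windows on either strand and in 14.0% of all windows. A direct repeat of AGGTCA with 1 base between, the textbook element of PPARα with its partner RXR, was in none of the 14 and in 0.0335% of all windows, and TATAAA was in none of the 14 and in 12.4% of all. Absence says only that these letters are not in these 250 bases. In the windows shown, the genes called lower and the genes called higher both carried CCAAT, and the motif did not separate the directions. At the other start of Pdk2 and of Pcx, the window held neither CCAAT nor CACGTG. The comparison of directions therefore holds only for the first start listed. The other genes with CCAAT, Pdhb and Pdk3, were not called.

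Pdk4, the kinase that rises in fasted liver, carried the largest difference of the 10 genes. Its log2 signal in Ppara+/+ livers was 9.60, 9.76 and 9.64 in males and 9.65, 9.83 and 9.67 in females. In Ppara-/- livers it was 8.42, 8.55 and 8.62 in males and 8.73, 8.58 and 8.60 in females. The highest Ppara-/- liver lay 0.87 log2 units below the lowest Ppara+/+ liver. Pdk4 fell by 1.11 on the log2 scale (SE 0.0533, 95% interval -1.22 to -0.99, adjusted p = 3.3e-07 from limma), which is 2.16-fold with an interval of 1.99 to 2.34. It was the 26th largest fall of all 19938 genes. The fall exceeded the spread within either genotype, 0.10 in Ppara-/- and 0.08 in Ppara+/+ (SD). In whole liver, fewer cells of a type and less RNA per cell cannot be told apart, here and in every gene below.

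Pdk2, a kinase of the same complex that most tissues express, went the other way. Ppara+/+ livers gave 9.58, 9.66 and 9.63 in males and 9.77, 9.55 and 9.54 in females. Ppara-/- livers gave 9.81, 9.87 and 9.78 in males and 9.90, 9.91 and 9.90 in females. The genotypes did not overlap, but only by 0.0087 log2 units, between the lowest Ppara-/- liver and the Ppara+/+ female of replicate 7, which stood above the other Ppara+/+ livers. Pdk2 rose by 0.24 (SE 0.0462, 95% interval 0.14 to 0.34, adjusted p = 0.0188 from limma) and was the 468th largest rise. The call was lost, with a log2 change of 0.22 to 0.23, without Ppara+/+ replicate 8 (adjusted p = 0.0511), Ppara-/- replicate 5 (0.0522) or Ppara-/- replicate 11 (0.0552).

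Pdk1, a kinase induced by low oxygen in many cells, ranged from 9.05 to 9.29 (median 9.15) in Ppara-/- and from 9.03 to 9.19 (median 9.09) in Ppara+/+ livers. The ranges overlapped over most of their length. Its log2 change was 0.06 (95% interval -0.04 to 0.17, adjusted p = 0.57 from limma). Pdk3, the fourth kinase, ranged from 8.86 to 9.27 (median 9.16) in Ppara-/- and from 9.07 to 9.28 (median 9.24) in Ppara+/+ livers. Its lowest value in each genotype stood apart from the rest of that genotype. The log2 change of Pdk3 was -0.08 (95% interval -0.22 to 0.06, adjusted p = 0.62 from limma), so a change as large as that of Pdk4 lies outside the intervals of Pdk1 and Pdk3.

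The kinases therefore did not change by equal amounts, which was tested within arrays. For each pair of genes the log2 difference between them was taken on every array and compared between genotypes with an exact two-sided permutation test over the 924 arrangements of the arrays, adjusted over 7 pairs, with 0.00216 the smallest p that it can give. Relative to Pdk1, Pdk4 changed by -1.17 log2 units (adjusted p = 0.00303, exact permutation test). Relative to Pdk2 the change of Pdk4 was -1.35, and relative to Pdk3 it was -1.03, both with the same adjusted p of 0.00303 from the exact test. Relative to the phosphatase Pdp2 it was -0.65, and relative to the E1α subunit gene Pdha1 it was -1.12, again with an adjusted p of 0.00303 from the exact test. In these 5 pairs the 6 Ppara-/- arrays did not overlap with the 6 Ppara+/+ arrays. Pdk4 therefore fell against each other kinase, against the phosphatase and against the enzyme they act on. The 5 pairs use the same Pdk4 values, so their equal p-values restate the fall of Pdk4 and are not separate evidence. The pairs were also chosen with earlier results of these data known.

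**Figure D2:**
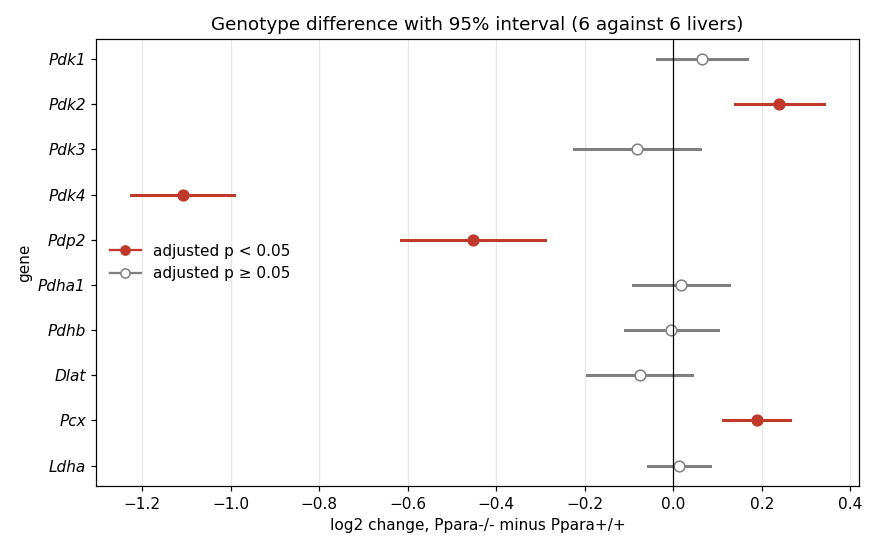
Log2 change of the 10 genes, Ppara-/- minus Ppara+/+ (horizontal axis), with the 95% interval from limma as a line; filled red points passed an adjusted p of 0.05. Pdk4 stands at -1.11 and Pdp2 at -0.45, Pdk2 and Pcx lie at 0.24 and 0.19, and the intervals of the other 6 genes include zero.

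Pdp2, a phosphatase that removes the phosphates set by the kinases, gave 7.89, 8.07 and 8.07 in Ppara+/+ males and 8.07, 7.87 and 7.94 in Ppara+/+ females. In Ppara-/- livers it gave 7.48, 7.49 and 7.73 in males and 7.37, 7.40 and 7.73 in females. The highest Ppara-/- liver lay 0.14 log2 units below the lowest Ppara+/+ liver, and the Ppara-/- livers were the more scattered group, with an SD of 0.16 against 0.10. Pdp2 fell by 0.45 (SE 0.0742, 95% interval -0.62 to -0.29, adjusted p = 0.0068 from limma), a 1.37-fold fall with an interval of 1.22 to 1.53 and the 100th largest of all genes. Its partner phosphatase Pdp1 had a log2 change of 0.12 (95% interval 0.01 to 0.23) and was not called (adjusted p = 0.29 from limma).

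None of the measured subunits of the complex passed the test. Pdha1, the E1α subunit that the kinases phosphorylate, ranged from 9.93 to 10.15 (median 10.01) in Ppara-/- and from 9.91 to 10.10 (median 10.03) in Ppara+/+ livers. Its log2 change was 0.02 (95% interval -0.09 to 0.12, adjusted p = 0.92 from limma). Pdhb, the E1β subunit, ranged from 7.71 to 7.88 (median 7.77) in Ppara-/- and from 7.66 to 7.89 (median 7.81) in Ppara+/+ livers. Its log2 change was 0.00, with a 95% interval of -0.11 to 0.10. Dlat, the E2 acetyltransferase that forms the core and anchors the kinases, ranged from 9.05 to 9.38 (median 9.29) in Ppara-/- and from 9.27 to 9.40 (median 9.35) in Ppara+/+ livers. Its log2 change was -0.08 (95% interval -0.20 to 0.04, adjusted p = 0.57 from limma), and its lowest value was that of the Ppara-/- female of replicate 10. The widest of the 3 intervals, that of Dlat, ends at -0.20, so none of these subunits had a difference near the size of the fall of Pdk4 or Pdp2. Of 5 other subunits and regulators of the complex, Pdhx, Dld, Pdha2, Pdp1 and Pdpr, 0 were called by limma and 1, Pdp1, had an unadjusted p under 0.05. Their log2 changes ran from -0.07 to 0.12. Pdha1 has the testis copy Pdha2, listed separately here, and how far the probes tell related copies apart was not tested.

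Pcx, pyruvate carboxylase, which makes oxaloacetate for glucose synthesis and for the citric acid cycle, gave 12.41, 12.41 and 12.35 in Ppara+/+ males and 12.33, 12.37 and 12.34 in Ppara+/+ females. Ppara-/- livers gave 12.64, 12.54 and 12.50 in males and 12.54, 12.55 and 12.56 in females. All Ppara-/- livers lay above all Ppara+/+ livers, by 0.09 log2 units at the nearest point. Pcx rose by 0.19 (SE 0.0345, 95% interval 0.11 to 0.26, adjusted p = 0.0136 from limma), a 1.14-fold rise and the 854th largest of all genes. Relative to Pdha1 on the same array, Pcx changed by 0.17 (adjusted p = 0.0227, exact permutation test), though for this difference the genotypes overlapped.

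Ldha, which reduces pyruvate to lactate, had the narrowest spread of the 10 genes in Ppara-/- livers, an SD of 0.03. The mean signal of Ldha was above that of 99.8% of all genes, and how fully signals respond at that height was not tested. Ldha ranged from 13.62 to 13.69 (median 13.65) in Ppara-/- and from 13.60 to 13.69 (median 13.65) in Ppara+/+ livers. The log2 change was 0.01 (95% interval -0.06 to 0.08, adjusted p = 0.90 from limma), and the end of the interval farther from zero is a 1.06-fold difference. Relative to Pdha1 it changed by 0.00 (adjusted p = 0.92, exact permutation test). Ldha has many processed copies in the genome, and their part in the signal was not tested.

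The 4 genes that were called had the same direction of change in males and in females. Pdk4 fell by 1.14 on the log2 scale in males (adjusted p = 5.0e-05 from limma) and by 1.08 in females (adjusted p = 8.6e-05 from limma). It was the only one of the 10 genes called within either sex, beside 0.928% of all genes called within males and 0.808% within females. Pdp2 had a log2 change of -0.45 in males and -0.46 in females, Pdk2 of 0.19 and 0.29, and Pcx of 0.17 and 0.20, with adjusted p from 0.12 to 0.38 from limma. In 7 of the 10 genes the sign was the same in both sexes. The exceptions were Pdha1 (0.06 in males, -0.02 in females), Pdhb (0.08 and -0.09) and Ldha (0.00 and 0.03). The difference between the sexes was tested as an interaction, and limma called 0 of the 10 genes and 0% of all genes. None of the 10 had an unadjusted interaction p under 0.05, and the smallest, that of Pdhb, was 0.0778. For Pdk4 the difference of the female from the male change was 0.06 with a 95% interval of -0.19 to 0.30. Sex itself was called for 0 of the 10 genes by limma, beside 0.0401% of all genes, and 0 had an unadjusted p under 0.05.

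**Figure D3:**
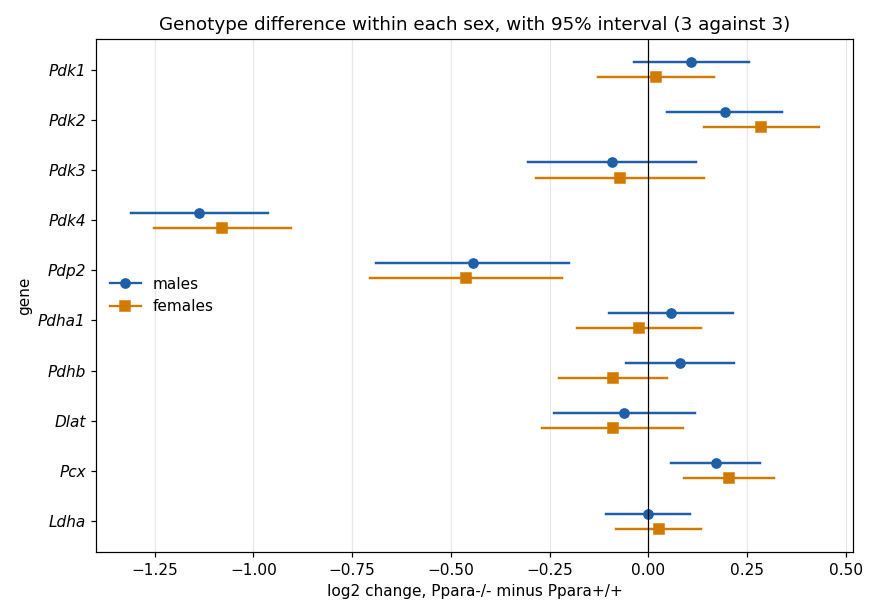
Log2 change of each gene, Ppara-/- minus Ppara+/+ (horizontal axis), in males (blue circles) and females (orange squares), 3 against 3 livers each, with the 95% interval from limma as a line. Pdk4 lies at -1.14 and -1.08, and the intervals of males and females overlap for every gene.

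Around these genes, 57 of 60 listed genes of pyruvate supply, use and control in 8 lists were measured, and 3 were called lower and 6 higher. These are 5.26% and 10.53% of the 57, beside 1.12% and 1.99% of all genes. The median log2 change of the 57 was 0.00 beside -0.01 over all genes. The lists were chosen with earlier results of these data known, so the difference in shares is a description and not a test. The genotypes did not overlap in 3 genes that were lower and 7 that were higher, beside 1.43% and 2.88% of all genes. These were the 9 called genes and Dhtkd1, a subunit of the 2-oxoadipate dehydrogenase, which was not called (log2 change 0.26, adjusted p = 0.0750 from limma). Among the carriers of pyruvate and lactate, 1 of 6 measured genes rose and 1 fell. Mpc1, a subunit of the carrier that brings pyruvate into the mitochondrion, ranged from 12.97 to 13.05 (median 13.04) in Ppara-/- and from 12.80 to 12.88 (median 12.82) in Ppara+/+ livers and rose by 0.19 (adjusted p = 0.00488 from limma). Slc16a7, a monocarboxylate carrier of the cell membrane, ranged from 10.89 to 10.99 (median 10.94) against 11.09 to 11.26 (median 11.15) and fell by 0.22 (adjusted p = 0.00697 from limma). The related carrier Slc16a1 and its chaperone Bsg had log2 changes of -0.09 each and were not called.

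Of 9 enzymes that link pyruvate with lactate, alanine and malate, 1 rose and 1 fell. Ldhb, the lactate dehydrogenase subunit typical of heart, ranged from 7.49 to 7.85 (median 7.64) in Ppara-/- and from 6.999 to 7.37 (median 7.22) in Ppara+/+ livers. It rose by 0.45, or 1.37-fold (SE 0.0715, adjusted p = 0.00569 from limma). The mean signal of Ldhb was above that of 46.9% of all genes. With all probe sets of Ldhb averaged the rise was smaller, 0.37 (adjusted p = 0.0286 from limma). The log2 change of Ldha was 0.01, and the difference between the subunits was not tested. Me1, the cytosolic malic enzyme that makes pyruvate and NADPH, ranged from 8.04 to 8.34 (median 8.18) in Ppara-/- and from 8.34 to 8.68 (median 8.52) in Ppara+/+ livers. It fell by 0.32 (adjusted p = 0.0356 from limma), but the call was lost without any one of 9 of the 12 arrays, with log2 changes of -0.27 to -0.33 and adjusted p of 0.0513 to 0.0902. It was also lost with all arrays in the fit of 4 groups of genotype and sex (adjusted p = 0.0517 from limma). The 9 arrays were Ppara+/+ replicates 1, 3, 8 and 9 and Ppara-/- replicates 4, 5, 6, 10 and 11. Gpt2, the mitochondrial alanine aminotransferase, had a log2 change of 0.25 and was not called (adjusted p = 0.11 from limma), and that of the mitochondrial malic enzyme Me2 was 0.01.

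Of 7 genes that handle oxaloacetate and acetyl-CoA next to pyruvate, 2 rose and none fell. Acly, which splits exported citrate into acetyl-CoA and oxaloacetate, ranged from 10.16 to 10.34 (median 10.33) in Ppara-/- and from 9.81 to 10.08 (median 9.97) in Ppara+/+ livers and rose by 0.34 (adjusted p = 0.00483 from limma). Slc25a1, the carrier that exports the citrate, ranged from 11.15 to 11.31 (median 11.25) against 10.91 to 11.04 (median 10.98) and rose by 0.26 (adjusted p = 0.00667 from limma). Pck1, which turns oxaloacetate into phosphoenolpyruvate for glucose synthesis, had a log2 change of 0.22 and was not called (adjusted p = 0.10 from limma). The malate dehydrogenases Mdh1 and Mdh2 had log2 changes of 0.13 and 0.10 and were not called. Of the pyruvate kinases, Pklr of liver had a log2 change of 0.20 (adjusted p = 0.25 from limma) and Pkm one of -0.01, and neither was called.

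Of 12 transcription factors and coactivators that are known to act on Pdk4, 2 rose and 1 fell. Ppargc1a, a coactivator of PPARα and of the estrogen-related receptors, ranged from 9.32 to 9.93 (median 9.69) in Ppara-/- and from 8.60 to 9.05 (median 9.001) in Ppara+/+ livers and rose by 0.75 (adjusted p = 0.00299 from limma). Pparg, a receptor of the PPARα family, ranged from 9.70 to 9.80 (median 9.73) against 9.37 to 9.60 (median 9.53) and rose by 0.24 (adjusted p = 0.0189 from limma). Esrrg, an estrogen-related receptor, ranged from 6.46 to 6.84 (median 6.62) in Ppara-/- and from 7.11 to 7.29 (median 7.14) in Ppara+/+ livers and fell by 0.54 (adjusted p = 0.000985 from limma). The signals of Hnf4a, Rxra and Foxo3 had log2 changes of 0.03, 0.07 and -0.12 and were not called.

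**Figure D4:**
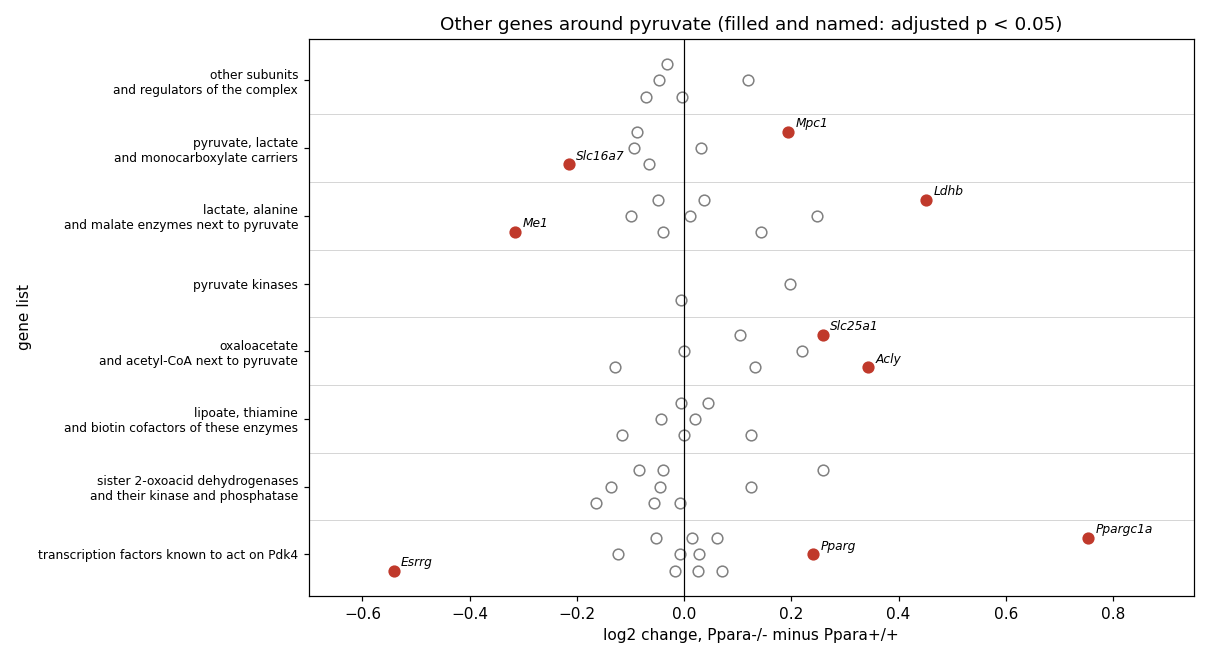
Log2 change, Ppara-/- minus Ppara+/+ (horizontal axis), of the 57 measured genes in 8 lists around pyruvate (vertical axis). Filled red, named points passed an adjusted p of 0.05 in limma: Slc16a7, Me1 and Esrrg lie below zero, and Mpc1, Ldhb, Acly, Slc25a1, Pparg and Ppargc1a above it.

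Ppara itself was read as a check of the labels, and it ranged from 10.21 to 10.33 in Ppara-/- and from 10.98 to 11.27 in Ppara+/+ livers, a log2 change of -0.89. This was a 1.85-fold fall, and the signal left in Ppara-/- livers was still above the array medians. What the probe set reads from the null allele was not tested. The median signal of an array was between 7.157 and 7.199, pairs of arrays correlated at 0.989 or more, and all 10 genes lay above the array median on every array. The hepatocyte markers were present in both genotypes, with 2 of 8 measured below zero and 6 above, and with summed linear signals of 113243 to 116926 in Ppara-/- and 111784 to 116302 in Ppara+/+ livers. In 10 lists of cell type markers limma called 0 genes, beside 1.12% of all genes called lower and 1.99% called higher. The Kupffer cell marker Clec4f did not overlap between the genotypes (log2 change 0.21, adjusted p = 0.0635 from limma), beside 2.88% of all genes wholly higher. The endothelial marker Cdh5 overlapped, with a log2 change of 0.24 (adjusted p = 0.0527 from limma). All 9 Kupffer cell markers measured had a log2 change above zero, as Pdk2 and Pcx did (median 0.21, summed signal 13079.3 to 14460.6 against 10816.3 to 14399.8, 7 with an unadjusted p under 0.05). So did all 8 liver endothelial markers (median 0.12, summed signal 10895.1 to 11634.4 against 9806.79 to 11045.8, 5 with an unadjusted p under 0.05). All 9 erythroid markers had a log2 change below zero, as Pdk4 and Pdp2 did (median -0.18, summed signal 25956.8 to 33274.5 against 28066.9 to 35397.6, 7 with an unadjusted p under 0.05). None of these markers lay below the array medians on all arrays. The share of all genes with an unadjusted p under 0.05 is not given, for these or for the other lists. Stellate cell markers had a median log2 change of 0.10 over 6 genes, granulocyte markers 0.08 over 7, cholangiocyte markers 0.07 over 5, striated muscle markers 0.13 over 8 and adipocyte markers -0.07 over 5. The part of other cell types in the changes of Pdk4, Pdp2, Pdk2 and Pcx was not tested. Summed pancreatic acinar signal was 5380 and 3581 in Ppara-/- replicates 6 and 10, against 669 to 2247 on the other 10 arrays. Without these 2 arrays Pdk4, Pdp2 and Pcx kept their calls, while Pdk2 lost its call with a log2 change of 0.25 (adjusted p = 0.0655 from limma). Me1 and Pparg of the wider lists lost theirs as well (adjusted p = 0.11 and 0.0899 from limma).

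**Figure D5:**
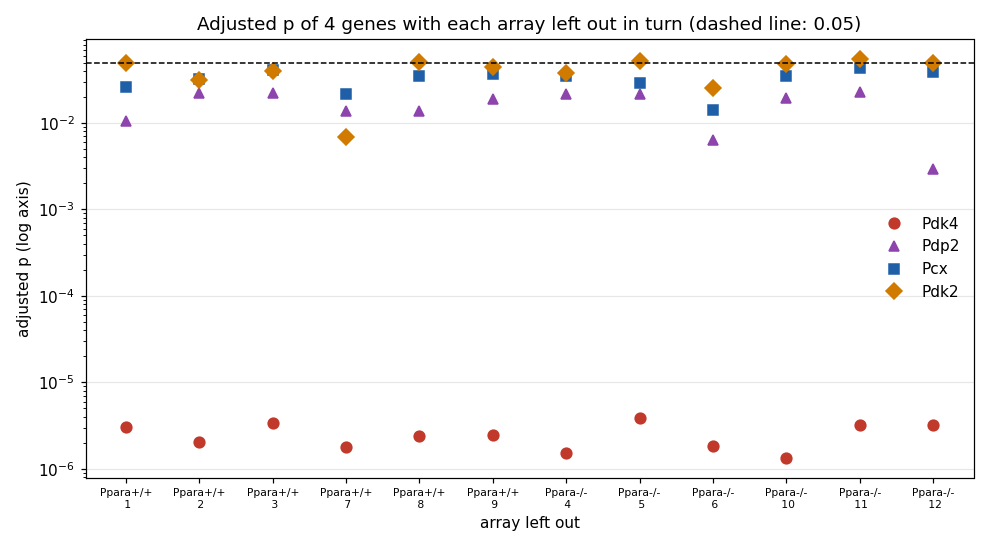
Adjusted p from limma (vertical axis, log scale) of Pdk4, Pdp2, Pcx and Pdk2 when the array named on the horizontal axis is left out; the dashed line marks 0.05. Pdk4 stays between 1.35e-06 and 3.88e-06, Pdp2 and Pcx stay under 0.05, and Pdk2 passes above it without 3 of the arrays.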

How the data were processed

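Liver RNA of 12 pups at P2 was measured on Affymetrix MoGene arrays, 1 array per pup. The authors summarised the arrays with RMA (version not given in the sources used here), and the deposited values are log2 signals of 35556 probe sets, normalized across arrays and used as deposited. Such normalization sets the arrays to a common distribution, so changes are relative to the other probe sets. The number of arrays limits the precision. Fetal arrays were not analysed here.

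Of the probe sets, 21789 name 1 gene, 1621 several and 12146 none here. Per gene the probe set of highest mean over the 12 arrays was read among those naming it alone. Groups came from the genotype and sex labels. With limma 3.58.1 in R 4.3.3 (functions lmFit and eBayes), all probe sets were fitted on genotype and sex (9 residual and 2.49 prior degrees of freedom), with Benjamini-Hochberg adjustment over all probe sets, and were called at an adjusted p under 0.05. A fit of 4 groups gave changes within each sex, sharing 1 spread, and their interaction. Unequal change was tested with exact permutations in Python 3.11.15. The fit was tested on simulated data.

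The members, lists and tests were chosen with earlier results of these data known. The named genes were the 10 members, Ppara, each wider-list gene called and up to 3 others a list of largest mean signal, and any marker called. Pdhx and Pdha2, outside that rule, complete a list of 5, and Dhtkd1, Clec4f and Cdh5 were named after their values were seen. Motifs were searched on both strands in the 250 bases before each RefSeq start (GRCm38.p6). Alternatives were fits without sex, of 4 groups, after quantile normalization or median centring, without the lowest 40% of probe sets by mean, with probe sets of 1 gene only, with a robust variance trend, with array weights and with all probe sets of a gene averaged, a minimum of 1.3-fold, an exact Mann-Whitney test, permutation within each sex, and each array left out. The fit without 2 arrays of high pancreatic signal was chosen after seeing the data. Mpc2 had no probe set that names it alone, and some listed genes are not reported here.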

Additional observations from a re-analysis of the deposited data

Results flagged for a closer look

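Among 20 sets of 6 arrays (10 genes in each genotype), 2 had a value far from the other 5 by Dixon's test, where chance gives about 1 in 20. Both were of Pdk3. The Ppara-/- male of replicate 4 had a log2 signal of 8.86, with the next Ppara-/- value at 9.14 and the highest at 9.27. The Ppara+/+ male of replicate 1 had 9.07, with the next at 9.21 and the highest at 9.28. With any single array left out, Pdk3 was not called and its log2 change ran from -0.12 to -0.03.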

How the results depend on the processing

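No paired analysis was possible because the replicate numbers run from 1 to 12 and no number occurs in both genotypes. Of 573 alternative values of a change, 536 stayed on their side of the threshold and 37 did not. In 16 the sign changed, all in changes near zero that were not called (Pdha1, Pdhb, Ldha, and Ldha relative to Pdha1), and in 0 the sign of a called change. Alternatives that altered only the covariates, the test, the threshold or the probe sets fitted could not move a log2 change in this balanced design. Averaging probe sets could not move the 10 genes either, since each had 1. The kept signs were in that part fixed in advance. Of 118 alternative counts, 84 equalled the count given above, and 105 were within 1.5 times of it. The adjusted exact Mann-Whitney test called 0 genes lower and 0 higher among the 10 and among the wider lists. In that test Pdk4 (-1.11), Pdp2 (-0.45), Pdk2 (0.24) and Pcx (0.19) were at 0.00216 unadjusted and 0.0691 adjusted. With these arrays 0.00216 is the smallest unadjusted p that the Mann-Whitney test can give. Every gene at that p had the same adjusted p of 0.0691, so no gene could pass 0.05, whatever its change. The adjusted Mann-Whitney test therefore cannot decide whether a gene changed. Unadjusted, the Mann-Whitney test called 2 and 2 of the 10, and 8 lower and 15 higher in the wider lists. The shares of all genes at that looser threshold, and with the 1.3-fold minimum that follows, are not given. These counts are therefore not set against a background. With a minimum of 1.3-fold, 2 of the 10 were called lower and 0 higher, since Pdk2 (0.24) and Pcx (0.19) fall short of it, and 1 lower and 2 higher in the wider lists. Without the 2 arrays of high pancreatic signal, an alternative chosen after seeing the data, 1 of the 10 was called higher and Pdk2 was at 0.25. With each array left out, 1 to 2 of the 10 were called higher, and Pdk2 ran from 0.22 to 0.27; the causes of these lost calls were not tested. Apart from the Mann-Whitney test, the adjusted p of Pdk4 ran from 2.6e-08 to 6.8e-06, and that of Pdp2 from 0.00219 to 0.0225. The number of arrays and the lack of litter labels limit these results.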

Other observations

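The sister complexes of pyruvate dehydrogenase share its design and its E3 subunit, and none of their genes passed the test. Of 9 genes of the branched-chain, 2-oxoglutarate and 2-oxoadipate dehydrogenases with their kinase and phosphatase, limma called 0, and 4 had an unadjusted p under 0.05. Bckdhb, Dbt and Ogdh had log2 changes of -0.14, 0.12 and -0.01. The median was -0.05 and the range -0.17 to 0.26, beside a median of -0.01 over all genes.

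Of 7 measured genes for the lipoate, thiamine and biotin that these enzymes carry, limma also called 0, and 2 had an unadjusted p under 0.05. Nfu1, which supplies iron-sulfur clusters for lipoate synthesis, had a log2 change of 0.02, Slc19a2, a thiamine carrier, -0.01, and Lias, the lipoate synthase, -0.12 (adjusted p = 0.31 from limma). The range over the 7 genes was -0.12 to 0.13.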
